A study of Mus musculus with 6 samples.

Results

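Ankrd1, Lmod2, Mybph and Jph2 encode 4 proteins of the striated-muscle fibre. They take part in the stretch response, the thin and thick filaments or the calcium-release junction. Their transcripts were measured in dystrophic quadriceps of 3 mice that received both spironolactone and lisinopril and of 3 untreated mice, all utrn+/-;mdx. The 4 genes were selected from the authors' deposited table of 60 probe sets by gene symbol, and they account for 5 of its 54 probe sets with a single gene symbol and for 4 of its 50 distinct genes, because Ankrd1 has 2 probe sets. The table itself holds probe sets that differed at least 2-fold between these same mice. They also appear to have been chosen on a low unadjusted p, which favours a small spread within groups. The difference between treated and untreated mice is therefore what chose the genes, and it is described below without a test.

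The treated mice received 10 mg/kg per day lisinopril, which inhibits angiotensin-converting enzyme, together with 37.5 mg/kg per day spironolactone, which blocks the mineralocorticoid receptor, in their water from 4 weeks of age until dissection at 20 weeks. Untreated mice had plain water and were dissected at the same age. All 6 mice were on C57BL/10, lacked dystrophin through the mdx allele and had 1 functional utrophin allele, and mice 1 and 2 of each group were male and mouse 3 was female. The drugs were given together, so their separate contributions cannot be told apart, and no dystrophin-positive or single-drug muscle was analysed here. Whole muscle was profiled on 1 array per mouse, so that fewer cells of a type and less RNA per cell cannot be told apart.

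Each sarcomere of a muscle fibre holds actin thin filaments, myosin thick filaments and the elastic protein titin. Ankrd1 is a muscle ankyrin repeat protein that binds titin in the I-band, can move to the nucleus, and is induced by stretch, injury and denervation in striated muscle. Lmod2 belongs to the leiomodins, which nucleate actin and lengthen thin filaments at their pointed ends, and is known best from heart. Mybph is a thick-filament protein related to the myosin binding protein C family, and Jph2 is a junctophilin that tethers the transverse tubule to the sarcoplasmic reticulum, where excitation is coupled to calcium release.

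In the RefSeq table of GRCm38.p6, Ankrd1 lies on the minus strand at chr19:36111965-36119844, Lmod2 on the plus strand at chr6:24597771-24605414, Mybph on the plus strand at chr1:134193418-134201237 and Jph2 on the minus strand at chr2:163336242-163398049. All 4 genes had a promoter window in that table. The 250 bases before 1 annotated start of each gene are shown because 1 pair had lower and 1 pair higher means in treated mice. For Mybph and Jph2 that start lies inside the gene range given above, so part of each of their windows overlaps that range. The windows run 5′ to 3′ on the gene's strand, at chr19:36119845-36120094 for Ankrd1, chr6:24597521-24597770 for Lmod2, chr1:134193198-134193447 for Mybph and chr2:163397994-163398243 for Jph2, the outer of its 2 windows. Capitals mark the M-CAT core bound by TEAD factors (GGAATG, or CATTCC on the other strand) and the E-box bound by myogenic factors (CANNTG).
Ankrd1: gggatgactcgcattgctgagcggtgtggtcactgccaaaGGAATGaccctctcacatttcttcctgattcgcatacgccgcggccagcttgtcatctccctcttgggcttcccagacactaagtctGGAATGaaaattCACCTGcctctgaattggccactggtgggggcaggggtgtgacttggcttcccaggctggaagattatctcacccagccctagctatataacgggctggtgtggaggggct
Lmod2: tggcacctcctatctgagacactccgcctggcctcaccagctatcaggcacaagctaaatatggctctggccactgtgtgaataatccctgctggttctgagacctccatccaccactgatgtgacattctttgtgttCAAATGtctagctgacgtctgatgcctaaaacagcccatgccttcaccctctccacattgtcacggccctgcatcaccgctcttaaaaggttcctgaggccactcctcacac
Mybph: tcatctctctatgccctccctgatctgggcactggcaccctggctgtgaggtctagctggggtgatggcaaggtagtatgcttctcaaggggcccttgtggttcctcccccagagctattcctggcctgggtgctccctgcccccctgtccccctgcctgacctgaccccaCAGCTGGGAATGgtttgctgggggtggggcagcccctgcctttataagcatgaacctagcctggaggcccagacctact
Jph2: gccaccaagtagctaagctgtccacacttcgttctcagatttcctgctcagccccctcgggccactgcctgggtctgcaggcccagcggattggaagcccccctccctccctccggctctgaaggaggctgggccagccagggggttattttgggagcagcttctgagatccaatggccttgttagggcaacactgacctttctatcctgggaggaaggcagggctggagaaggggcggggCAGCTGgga

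The M-CAT core occurred at 2 places in the Ankrd1 window, 210 and 123 bases before the start, and at 1 place in the Mybph window, 73 bases before it, directly after an E-box. It was not in the Lmod2 or Jph2 window. Of 32851 windows of the same length in the table, 12.6% held the core at least once and 1.02% at 2 or more places. Each of the 4 windows held 1 E-box, a motif found in 66.2% of all windows. The Jph2 E-box lies inside the gene range given above. The SRF CArG box and the MEF2 site, found in 1.47% and 2.92% of all windows, were in none of the 4 on either strand. A CArG box with exactly 1 mismatched base, found in 17.5% of all windows, was at 2 places in the Lmod2 window (196 and 32 bases before the start), at 1 place in Mybph (41 bases before it) and at 1 place in Jph2 (73 bases before it), and was not in the Ankrd1 window. A TATA pattern (TATAAA or TATAAG, or TTTATA or CTTATA on the other strand), found in 17.0% of all windows, was in the Mybph window alone of the 4, where it overlaps the mismatched CArG box. A longer TATA pattern (TATANAN with A or T at each N, both strands), found in 11.5% of all windows, was in the Ankrd1 window alone of the 4, 27 bases before the start. These are all 7 motif patterns searched, and they were chosen after the windows had been read. Ankrd1 and Lmod2, the lower pair, had no searched motif in common other than the E-box, Mybph and Jph2 shared the E-box and the mismatched CArG box, and the M-CAT core was present in 1 gene of each pair.

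The mean deposited log2 values of Ankrd1 and Lmod2 were lower in treated than in untreated mice, and those of Mybph and Jph2 were higher. The sizes lay close together, between 2.01-fold and 2.35-fold. All 5 probe sets were past 2-fold by their selection, where 132 of 45037 probe sets (0.293%) were past it in either direction, 85 (0.189%) lower and 47 (0.104%) higher. The median difference over all probe sets was 0.032 on the log2 scale. By limma, with p adjusted over all of them by Benjamini-Hochberg, 0 of 45037 (0%) passed an adjusted p of 0.05, 3443 (7.64%) had an unadjusted p under 0.05, and 69 (0.153%) had such a p and a 2-fold difference. Jph2 is the listed probe set nearest the 2-fold criterion at 2.01-fold, the next one was at 2.013-fold, and the highest fold under 2 among probe sets with an unadjusted p under 0.05 was 1.99. A further 9 probe sets at 2-fold or more with such a p by limma are not in the table.

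**Figure D1:**
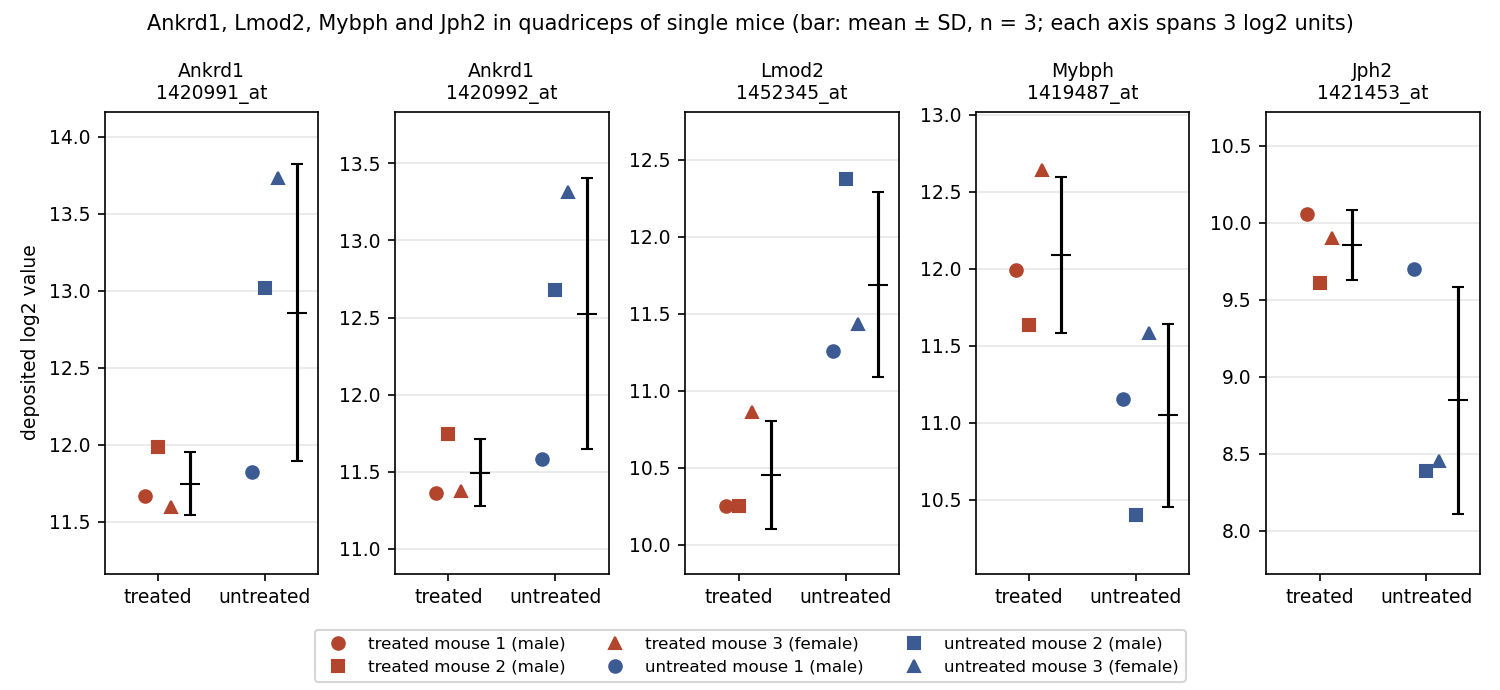
Deposited log2 values of the 5 probe sets in single mice, treated on the left and untreated on the right of each panel, with the mean ± SD of 3 mice as a bar and an axis of its own for each panel. Untreated mouse 1 lies among the treated mice for both Ankrd1 probe sets and for Jph2, whereas the groups are apart for Lmod2 and Mybph.

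Ankrd1 on probe set 1420991_at had log2 values of 11.67, 11.98 and 11.59 in treated mice 1, 2 and 3, against 11.82, 13.02 and 13.73 in untreated mice 1, 2 and 3. The treated mice formed a tight low group, untreated mice 2 and 3 were high, and untreated mouse 1 fell within the treated range, so that the groups overlapped. The means were 11.7 ± 0.207 in treated and 12.9 ± 0.965 in untreated mice (SD, n = 3 each), a log2 difference of -1.11 or 2.16-fold lower. The spread was thus wider in the untreated group.

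The other Ankrd1 probe set, 1420992_at, had log2 values of 11.36, 11.74 and 11.37 in treated mice 1, 2 and 3, against 11.58, 12.68 and 13.32 in untreated mice 1, 2 and 3. It placed untreated mouse 1 within the treated range as well. Its means were 11.5 ± 0.217 in treated and 12.5 ± 0.879 in untreated mice (SD, n = 3 each), a log2 difference of -1.03 or 2.05-fold lower.

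The 2 Ankrd1 probe sets gave nearly the same picture. Probe set 1420991_at read higher than 1420992_at in every mouse, by 0.257 ± 0.0472 on the log2 scale in treated and 0.333 ± 0.0865 in untreated mice (SD, n = 3 each). The treatment differences of the 2 sets were 0.0759 apart on the log2 scale. Across the 6 mice their values had a Pearson r of 0.999, and after each group's mean was taken away r was 0.998. Both sets come from the same RNA on the same arrays, so they repeat the measurement of Ankrd1 but are not independent samples.

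**Figure D2:**
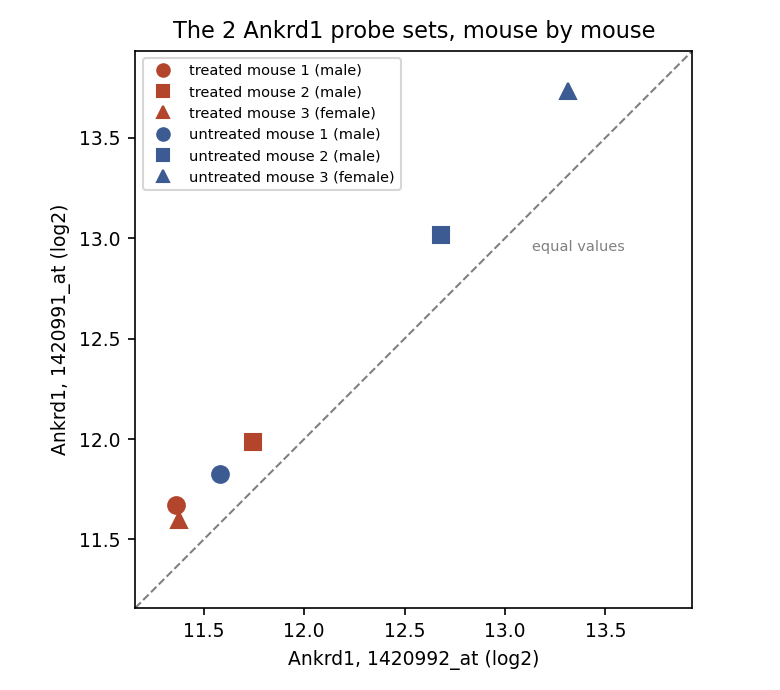
Log2 values of Ankrd1 on probe set 1420991_at (vertical) against probe set 1420992_at (horizontal) in 6 mice, with a dashed line of equal values. The points lie 0.22 to 0.418 above the line, furthest above it for untreated mouse 3. Untreated mice 2 and 3 are at the top and untreated mouse 1 is between the treated mice.

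Lmod2 (1452345_at) had log2 values of 10.25, 10.25 and 10.86 in treated mice 1, 2 and 3, against 11.26, 12.38 and 11.43 in untreated mice 1, 2 and 3. Every treated mouse lay below every untreated mouse, with a gap of 0.40 between treated mouse 3 and untreated mouse 1. The means were 10.5 ± 0.351 in treated and 11.7 ± 0.601 in untreated mice (SD, n = 3 each), a log2 difference of -1.23 or 2.35-fold lower, the largest of the 5 probe sets. The highest untreated value was that of mouse 2 here, not of mouse 3 as for Ankrd1.

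Mybph (1419487_at) had log2 values of 11.99, 11.64 and 12.64 in treated mice 1, 2 and 3, against 11.16, 10.40 and 11.58 in untreated mice 1, 2 and 3. Every treated mouse lay above every untreated mouse, but treated mouse 2 and untreated mouse 3 were only 0.054 apart. The means were 12.1 ± 0.508 in treated and 11.05 ± 0.597 in untreated mice (SD, n = 3 each), a log2 difference of 1.04 or 2.06-fold higher. Within each group mouse 3 was highest and mouse 2 lowest.

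Jph2 (1421453_at) had log2 values of 10.05, 9.61 and 9.90 in treated mice 1, 2 and 3, against 9.70, 8.39 and 8.46 in untreated mice 1, 2 and 3. Untreated mouse 1 was above treated mouse 2, while untreated mice 2 and 3 were both more than 1 log2 unit below all treated mice. The means were 9.85 ± 0.226 in treated and 8.85 ± 0.736 in untreated mice (SD, n = 3 each), a log2 difference of 1.01 or 2.01-fold higher. As for Ankrd1, the untreated mice were spread more widely than the treated ones.

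Separation of the groups held for 2 of the 5 probe sets, Lmod2 below and Mybph above. Over all probe sets the groups did not overlap for 14.3%, of which 5.22% were lower and 9.1% higher in treated mice. The genes were chosen on this contrast, so nothing is read from their count. The residual SD within groups was 0.492 to 0.698 for the 5 probe sets. The median of all probe sets was 0.147, and 96.4 to 98.8% of probe sets had a smaller one. The authors' deposited table gave ratios of treated over control of 0.464 and 0.489 for Ankrd1, 0.425 for Lmod2, 2.06 for Mybph and 2.01 for Jph2.

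The direction of each of the 5 differences was the same when any 1 mouse was left out. Without untreated mouse 1, Ankrd1 was 3.09-fold lower (1420991_at) and 2.84-fold lower (1420992_at) and Jph2 was 2.69-fold higher. The smallest fold of Jph2 was 1.71, reached when untreated mouse 2 was dropped. Jph2 also fell under 2-fold on dropping untreated mouse 3 (1.75), treated mouse 1 (1.87) or treated mouse 3 (1.98). Dropping treated mouse 2 gave 2.185 for Jph2. Without untreated mouse 3, Ankrd1 was 1.59-fold and 1.56-fold lower. Lmod2 ranged between 1.86-fold lower without untreated mouse 2 and 2.73-fold lower without untreated mouse 1, and Mybph between 1.65-fold higher without untreated mouse 2 and 2.48-fold higher without untreated mouse 3. In the 4 males alone Ankrd1 was 1.51-fold and 1.49-fold lower, Lmod2 2.96-fold lower, Mybph 2.05-fold higher and Jph2 1.73-fold higher.

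**Figure D3:**
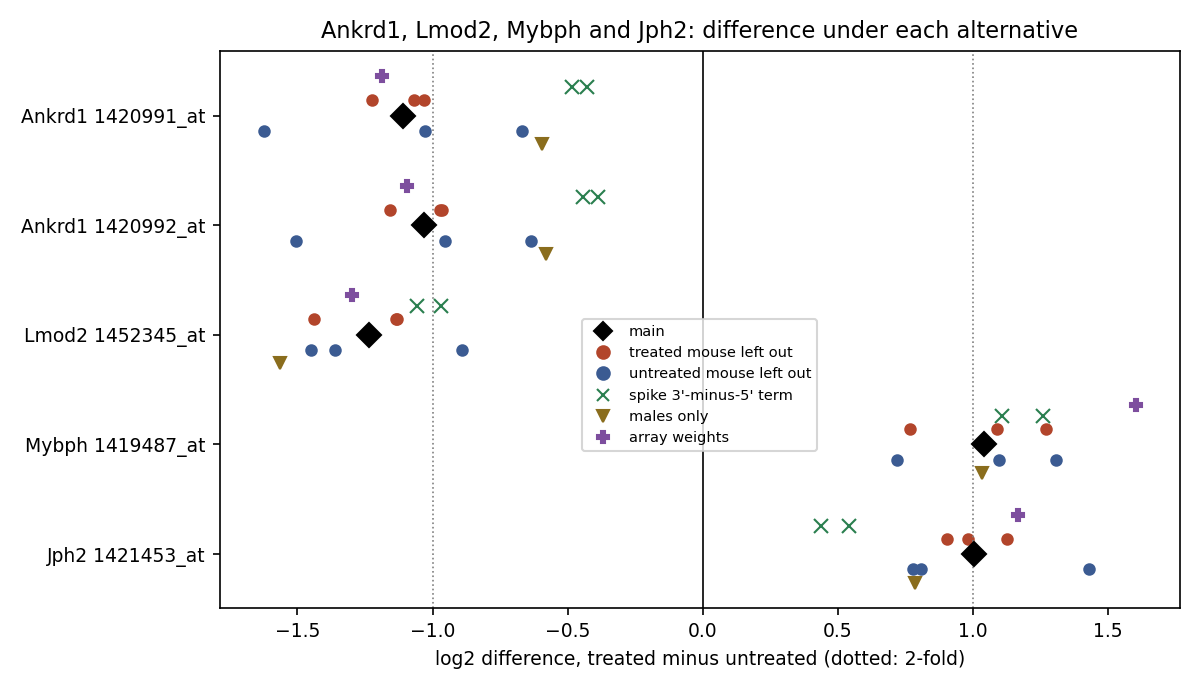
Log2 difference of each probe set, treated minus untreated, in the main comparison (diamond) and with 1 mouse left out, males only, array weights or the 3′-minus-5′ signal of spike controls as a term (2 crosses, for 2 sets of spike probes). No value crosses 0. The crosses of Ankrd1, Lmod2 and Jph2 lie nearer to 0 than their diamonds, and those of Mybph lie further from 0.

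RNAs are spiked in to gauge labelling, and the excess of their 3′ over their 5′ log2 signal, averaged here over 4 poly-A spikes, differed among the arrays and moved with Ankrd1 and Jph2. The spike value was 1.32, 1.52 and 1.53 on the arrays of treated mice 1, 2 and 3, against 1.44, 1.69 and 1.76 for untreated mice 1, 2 and 3. Untreated mice 2 and 3, which had the 2 highest spike values, also had the highest Ankrd1 and the lowest Jph2 values, and untreated mouse 1 lay within the treated range for all 3. With the spike value as a term, Ankrd1 was 1.35-fold lower (1420991_at) and 1.31-fold lower (1420992_at) and Jph2 was 1.36-fold higher, while Lmod2 was 1.96-fold lower and Mybph 2.15-fold higher. Gapdh, an RNA of the muscle itself, had a 3′-minus-5′ log2 signal of 0.164, 0.241 and 0.187 in treated mice 1, 2 and 3, against 0.217, 0.523 and 0.591 in untreated mice 1, 2 and 3. Untreated mice 2 and 3 were thus high for this sign of RNA quality as well, and untreated mouse 1 lay within the treated range. The part of labelling and of RNA quality in these differences was not tested.

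Markers of fibre type, fat and Schwann cells also differed between the mice. The 5 named slow-fibre genes of a 12-gene list (Myl2, Myl3, Tnnt1, Tnnc1 and Tpm3) had a mean log2 value of 7.34, 7.65 and 8.92 in treated mice 1, 2 and 3, against 8.28, 10.5 and 11.6 in untreated mice 1, 2 and 3. The 4 named adipocyte genes of an 8-gene list (Cfd, Cidec, Retn and Pck1) had a mean of 9.40, 8.05 and 9.82 in treated mice 1, 2 and 3, against 7.95, 7.54 and 8.20 in untreated mice 1, 2 and 3. Untreated mice 2 and 3 were thus the mice with high slow-fibre values and high Ankrd1, and within each group the order of adipocyte values was that of Mybph. Mbp, myelin basic protein, was the 1 named gene of a 4-gene Schwann cell list and had log2 values of 7.30, 7.77 and 7.28 in treated mice 1, 2 and 3, against 8.03, 8.63 and 8.99 in untreated mice 1, 2 and 3. It was 2.15-fold lower in treated mice with no overlap between the groups, and untreated mice 2 and 3 were highest here too. The part of fibre type, fat and nerve content in the 4 genes' differences was not tested, and the named slow-fibre, fat and Schwann cell genes come from the same selected table.

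Among the mice of a group the 4 genes did not vary as 1 set. Ankrd1 and Jph2 ran opposite to each other: after removal of the group means the Pearson r over 6 mice was -0.904 for 1420991_at and -0.916 for 1420992_at. Ankrd1 and Lmod2, the pair with lower means, had an r of 0.172 and 0.191 after the same step, and Mybph and Jph2, the pair with higher means, had 0.244. Without that step the corresponding r values were -0.952 and -0.958, 0.652 and 0.663, and 0.672. The choice of genes by their group difference makes these r values larger in size. These are descriptions over 6 mice in 2 groups, and all values share the same 6 arrays. For Ankrd1 (1420991_at) and Jph2, untreated mouse 1 deviated most from its group mean, by -1.03 and 0.849. Untreated mice 2 and 3 deviated by 0.158 and 0.877 for Ankrd1, against -0.457 and -0.392 for Jph2. The r of Ankrd1 with Jph2 thus leans on untreated mouse 1.

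**Figure D4:**
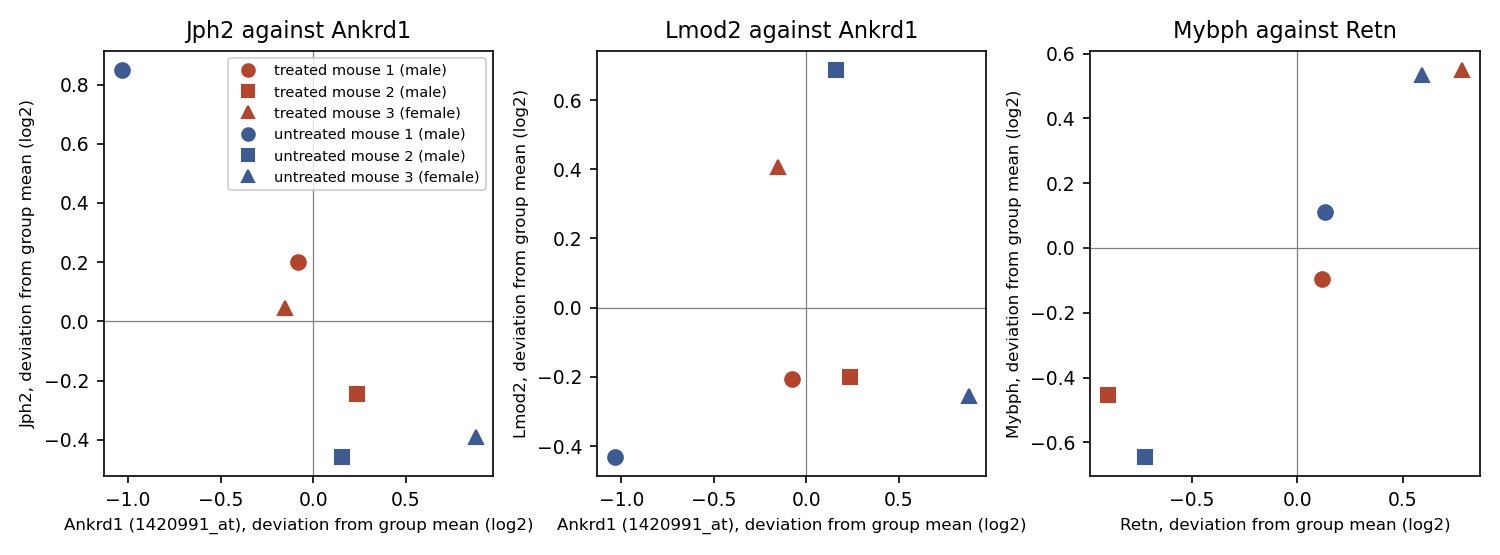
Deviation of single mice from their group mean in log2 units, for Jph2 against Ankrd1 (left), Lmod2 against Ankrd1 (middle) and Mybph against Retn (right). Jph2 falls along the Ankrd1 axis (r = -0.904), with untreated mouse 1 furthest out on both. Lmod2 shows little relation to Ankrd1 (r = 0.172), and Mybph runs along Retn (r = 0.96).

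Each probe set was also compared with the other 53 single-gene probe sets of the authors' table by Pearson r over the 6 mice. Next to its own second probe set, Ankrd1 was most like Itga5, an integrin alpha subunit that pairs with beta 1 as a fibronectin receptor, with an r of 0.99 and 0.992 for the 2 Ankrd1 sets (0.98 and 0.984 after removal of group means). Itga5 had log2 values of 5.68, 6.15 and 5.82 in treated mice 1, 2 and 3, against 6.09, 6.91 and 7.77 in untreated mice 1, 2 and 3. It repeats the order of Ankrd1 in the untreated mice. The third was Hivep3, a zinc finger DNA-binding protein, with an r of 0.983 and 0.987 (0.966 and 0.975 after removal of group means). Both genes had low values in treated mice, with means of 5.88 for Itga5 and 6.22 for Hivep3. The array medians were 6.07 to 6.13.

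Jph2 was most like Gpt2, the mitochondrial alanine aminotransferase, with an r of 0.988 over the 6 mice and 0.994 after removal of group means. Gpt2 had log2 values of 10.7, 10.5 and 10.6 in treated mice 1, 2 and 3, against 10.2, 9.19 and 9.30 in untreated mice 1, 2 and 3, again with untreated mouse 1 nearest to the treated mice. Gpd1, a glycerol-3-phosphate dehydrogenase of the cytosol, and Tob1, an antiproliferative protein, followed with an r of 0.976 and 0.945 (0.945 and 0.878 after removal of group means).

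Mybph was most like Retn, Cdo1 and Cfd. Retn, which encodes the adipokine resistin in mice, had an r of 0.973 with Mybph (0.96 after removal of group means), Cdo1, a cysteine dioxygenase, had 0.953 (0.916) and Cfd, adipsin, had 0.952 (0.897). Retn had log2 values of 9.36, 8.35 and 10.0 in treated mice 1, 2 and 3, against 8.26, 7.41 and 8.72 in untreated mice 1, 2 and 3, and like Mybph it was highest in mouse 3 and lowest in mouse 2 of each group. Retn and Cfd belong to the adipocyte list above.

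Lmod2 was most like Lcn2, the siderophore-binding lipocalin 2, with an r of 0.933 (0.827 after removal of group means). Lcn2 had log2 values of 6.74, 7.01 and 6.94 in treated mice 1, 2 and 3, against 8.41, 10.7 and 7.87 in untreated mice 1, 2 and 3, and shared with Lmod2 a peak in untreated mouse 2. Npr3, the natriuretic peptide clearance receptor, and Myl3, a slow and ventricular myosin light chain, followed with an r of 0.905 and 0.809 (0.721 and 0.612 after removal of group means). All genes compared were selected on the same contrast, which raises the r values taken without removal of group means. The genes named are also the 3 with the highest r of 53 compared, so a high r is part of their choice. None is tested.

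Sex labels were not used in the choice of the 4 genes, and sex was tested. A low unadjusted p favours a small spread within groups, and each group holds both sexes. The sex and interaction tests are therefore not fully independent of the choice. Mybph averaged 12.1 on the log2 scale in the 2 females and 11.3 in the 4 males, and in both groups the female had the highest value. Its female-minus-male log2 difference was 0.81 (SE 0.22), with a limma adjusted p of 0.849 over all probe sets and treatment as a term. In that fit 4 of 45037 probe sets (0.00888%) passed and 2163 (4.8%) had an unadjusted p under 0.05. None of the 4 genes passed the adjusted threshold. Mybph had an unadjusted limma p of 0.00762, and the other 3 genes had unadjusted limma p values of 0.236 to 0.75. Female-minus-male differences were 0.54 (SE 0.42) and 0.51 (SE 0.39) for the 2 Ankrd1 probe sets, 0.11 (SE 0.34) for Lmod2 and -0.26 (SE 0.36) for Jph2, with limma adjusted p values of 0.854 to 0.962.

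The treated-minus-untreated difference of Ankrd1 (1420991_at) was -2.14 between the 2 females and -0.59 between the males, on the log2 scale. The treatment-by-sex interaction was -1.55 (SE 0.64), with a limma adjusted p of 0.965, and on 1420992_at it was -1.36 (SE 0.61), with a limma adjusted p of 0.972. For Lmod2 the difference was -0.57 between females and -1.57 between males, for Mybph 1.06 and 1.03, and for Jph2 1.44 and 0.79, each with a limma adjusted p of 1 for the interaction. The interaction passed for 0 of 45037 probe sets (0%) by limma, with 2325 (5.16%) at an unadjusted p under 0.05, and it rests on 1 female in each group.

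Other genes of the same roles can be given only where the authors' deposited table names them. Of 3 muscle ankyrin repeat genes, Ankrd1 was the only one named, and of 17 symbols on a stretch and load list, which holds older and newer symbols of some genes, Ankrd1 and Fos were named. Fos, an immediate early transcription factor, averaged 10.2 ± 0.420 in treated and 11.4 ± 0.784 in untreated mice (SD, n = 3 each), 2.33-fold lower, with no overlap between the groups. Of 15 genes on a thin-filament pointed-end list, Lmod2 and the tropomyosin Tpm3 were named. Tpm3 averaged 7.25 ± 0.915 in treated and 9.87 ± 2.03 in untreated mice (SD, n = 3 each), 6.14-fold lower, and its groups overlapped. Mybph was the only named gene of 10 on a thick-filament list, and Jph2 the only one of 24 on a triad and excitation-contraction list. None of these genes passed the limma threshold over all probe sets. The fast-fibre, regenerating-fibre, macrophage, fibroblast, endothelial and smooth-muscle lists had no named gene, so the muscle label could be checked here only through the 4 genes themselves and the slow-fibre genes.

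Array medians lay between 6.07 and 6.13 on the log2 scale, and the correlation of any pair of arrays over all 45037 probe sets was 0.974 to 0.995. Untreated mouse 3 had the lowest mean correlation, 0.983, and the other mice had 0.988 to 0.992. Nothing in the labels says whether the mice shared litters or cages, so the p-values measure only the spread between these 6 mice.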

How the data were processed

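Quadriceps RNA of 6 mice was hybridized to 1 array each, per the labels' protocols. The deposited values are on the log2 scale. The submitters' processing notes list Transcriptome Analysis Console, Affymetrix Expression Console and RMA without saying what each did. Which array annotation and build were used is not given in the sources used here. RMA usually includes quantile normalization, which hides shifts shared by most genes. A second deposited table gives, per the file headers, gene symbols, the same log2 values (within 0.00033), p-values, geometric mean intensities of each class and the treated-over-control ratio. Its p-values were not used, because they test the contrast that selected the 4 genes.

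After 64 control probe sets were left out, 45037 were fitted with limma 3.58.1 in R 4.3.3 (lmFit, eBayes), with two-sided tests, p adjusted over all of them (Benjamini-Hochberg) and a threshold of 0.05. The fit was tested on simulated data. Sex and its interaction with treatment were tested because the selection did not use sex labels. A selection on low p still favours a small spread within groups, which includes sex differences. All 5 probe sets passed a filter at a mean log2 value of at least 6. Precision is limited by the number of arrays. The genes and lists were chosen with earlier results of these data known. Named genes are the 4 genes, for each of their probe sets the 3 single-gene probe sets with the highest Pearson r, and list genes that the table names. Sequences are RefSeq's (GRCm38.p6). Restriction to males was chosen after seeing the data. The spike term had been planned without naming its probe sets; it was computed with the redesigned sets first and then with the older ones, which became the reported setting to match earlier processing of these data, and both are given.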

Additional observations from a re-analysis of the deposited data

How the results depend on the processing

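All 75 treatment differences of the 5 probe sets under the alternatives kept their direction. They were sex as a term, a replicate block, median centring, spike term, array weights, each mouse left out, males only and group medians. The authors' table values, which are nearly the same log2 values, were also used. Each group has 2 males, 1 female and 1 mouse of each number, so the sex term and the replicate block could only return the main differences. Median centring shifts every probe set alike. The genes were selected on this difference, so the kept direction is a description and not support for it. With the spike term, Ankrd1 on 1420992_at moved to -0.39 and Jph2 to 0.44 on the log2 scale, and with array weights Mybph moved to 1.60. The weight was 3.54 for treated mouse 3, which had the highest Mybph value. The other arrays had weights between 0.445 (untreated mouse 3) and 1.65 (untreated mouse 2). The fold of Ankrd1 moved by over 1.5 times with the spike term (1.35-fold and 1.31-fold lower) and with the redesigned spike probe sets (1.40-fold lower on 1420991_at and 1.36-fold lower on 1420992_at). The cause was not tested.

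Limma called 0 probe sets in the main comparison, where 3443 had an unadjusted p under 0.05, and 0 under each alternative run. The 132 probe sets at 2-fold became 64 with the spike term (39 of them higher in treated mice, against 47 of 132), 67 with the redesigned spike probe sets and 200 with array weights, and between 94 and 522 with 1 mouse left out (278 without treated mouse 2, 522 without untreated mouse 1). The 69 that also had an unadjusted p under 0.05 became 39, 45 and 154 under those 3 settings, 112 with the replicate block, and between 42 (without treated mouse 1) and 429 (without untreated mouse 1) with 1 mouse left out, with 111 without treated mouse 2. The replicate block could not change the 4 genes' differences, because each number occurs once in each group. Same-numbered mice had deviations from group means that correlated at 0.517, -0.0824 and 0.183. Treated mice 1 and 3 correlated best with the untreated mouse of the same number, but treated mouse 2 correlated best with untreated mouse 3 (0.357). The numbers were not taken as pairs, and these correlations do not settle whether they are.

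With the spike term the female-minus-male difference reversed to -0.0804 and -0.0904 for Ankrd1 (1420991_at and 1420992_at), -0.186 for Lmod2 and 0.364 for Jph2. With 1 mouse left out it ranged between -0.23 and 1.31 and between -0.18 and 1.19 for Ankrd1, -0.38 and 0.61 for Lmod2, 0.65 and 0.98 for Mybph, and -0.59 and 0.067 for Jph2. None of these was called by limma with or without these changes.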
